A study of Mus musculus with 6 samples.

Results

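The genes described here encode the subunits of the proteasome, its activators and inhibitor, and the chaperones that assemble it. They were taken by name: every non-control probe whose gene name in the array files begins with Psm, then a letter from a to g and a digit, without the immunoproteasome genes Psmb8, Psmb9, and Psmb10 and without pseudogenes. This gave 90 of the 56605 probes on the array and 46 of the 37028 genes tested. All 90 probes passed the filter on detection. Of these, 80 were well above background on all 6 arrays, 8 on none, and 2 on some of them. By its brightest probe, which represents a gene throughout, 44 of the 46 genes were well above background on all arrays of at least 1 genotype. The other 2, Psma8 of the testis proteasome and Psmb11 of the thymus proteasome, were not, and no fold change is given for them. Psmc3ip was taken in by its name alone, since it encodes a meiotic recombination factor and no part of the proteasome. The 2 Psme2b probes also list transcripts of Psme2 in the files, so signals of these near-identical genes cannot be told apart.

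The proteasome is the barrel-shaped protease that degrades proteins marked with ubiquitin. Its 20S core consists of outer alpha rings, which form the gate, and inner beta rings, which carry the proteolytic sites, and the 19S particle on the end of the core recognizes ubiquitin and feeds the unfolded substrate in with a ring of ATPases. Other activators can take the place of the 19S particle, and in cells exposed to interferon, the catalytic beta subunits are exchanged for those of the immunoproteasome.

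Kidney mRNA of male C57BL/6J WT mice and of Selenbp1-KO mice was compared, with 3 mice per genotype and 1 array per mouse. All mice were 8 weeks old and had been fasted for 20 h, and the whole left kidney was used. Selenbp1 encodes a selenium-binding protein, and the study asked which renal genes change when it is deleted. The WT mice were purchased, and nothing in the labels or methods says that they were littermates of the Selenbp1-KO mice, so origin and genotype cannot be told apart. All arrays lie on 1 slide. Array positions in the scanner barcode begin with 1 for WT replicates 2 and 3, and with 2 for WT replicate 4 and all 3 Selenbp1-KO arrays. These are called slide sides 1 and 2 here, a name that neither labels nor headers give. Values of single arrays are given in the order of replicates 2, 3, and 4 for WT and 1, 2, and 3 for Selenbp1-KO mice. Levels are log2 signals relative to the 75th percentile of the array, and differences are Selenbp1-KO minus WT. Selenbp1 itself fell from 7.07, 7.02, and 7.02 in the WT arrays to 4.13, 3.98, and 4.10 in the Selenbp1-KO arrays (difference −2.96, limma adjusted p = 0.0014), so each array bears out its label. All 9 tubule and podocyte markers were well above background on all 6 arrays, and none of them passed the test. The median of all genes differed by 0.13 under this scaling and by 0.004 after quantile normalization, whereas the median over the 19263 genes well above background differed by 0.02. The last of these is set beside the proteasome genes.

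Probes to a subunit of the 20S core and of the 19S particle show what the arrays read. Psmb5, which encodes the chymotrypsin-like beta subunit, has 1 probe (NM_011186, from base 607 of the transcript). Psmd1, which encodes the largest scaffold subunit of the 19S particle, has 4, and the one shown starts at base 2628 (NM_027357) and spans an exon junction. Both lie within the coding sequence and are given 5′ to 3′ in the sense of the mRNA, with mm9 coordinates from the files. For Psmb5 it is chr14:55233161-55233220 on the minus strand, and for Psmd1 it is chr1:88027281-88029323 on the plus strand, intron included.
Psmb5: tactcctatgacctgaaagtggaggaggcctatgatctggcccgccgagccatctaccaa
Psmd1: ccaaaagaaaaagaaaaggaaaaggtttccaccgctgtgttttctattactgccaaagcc

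The mRNA expression levels of the proteasome genes differed little between genotypes, from −0.21 for Psmf1 to 0.25 for Psme3 among those well above background. None of the 46 genes passed the test (limma, unadjusted p under 0.05), whereas 8.0% of all genes did, 6.87% higher and 1.13% lower in Selenbp1-KO mice. Among genes well above background, 5.79% passed. Because limma draws the variance of each gene toward a value shared by all probes, these counts depend on the variance model, as given below. The lowest p of a proteasome gene was 0.068, for Psmb5, and its Benjamini-Hochberg adjusted p from limma over all genes was 0.275. Of the 44 genes well above background, 32 had a higher and 12 a lower mean in Selenbp1-KO kidneys, and the median of the log2 differences was 0.04. After quantile normalization, 22 were higher and 22 lower, and with slide side as a block the split was again 22 and 22, so the lean to higher values was not seen under either. The 95% confidence interval of a difference reached, in the median, 0.25 on either side, and the widest, of Psme3, ran from −0.46 to 0.97. These genes also varied little from array to array. From the lowest to the highest of the 6 arrays, a proteasome gene spanned a median of 0.21, and 36 of the 44 spanned less than 0.3. Over all genes well above background, the median span was 0.36, and 7265 of 19263 spanned less than 0.3. The genes compared were not matched for signal level, so whether a narrow span is particular to proteasome genes was not tested.

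**Figure D1:**
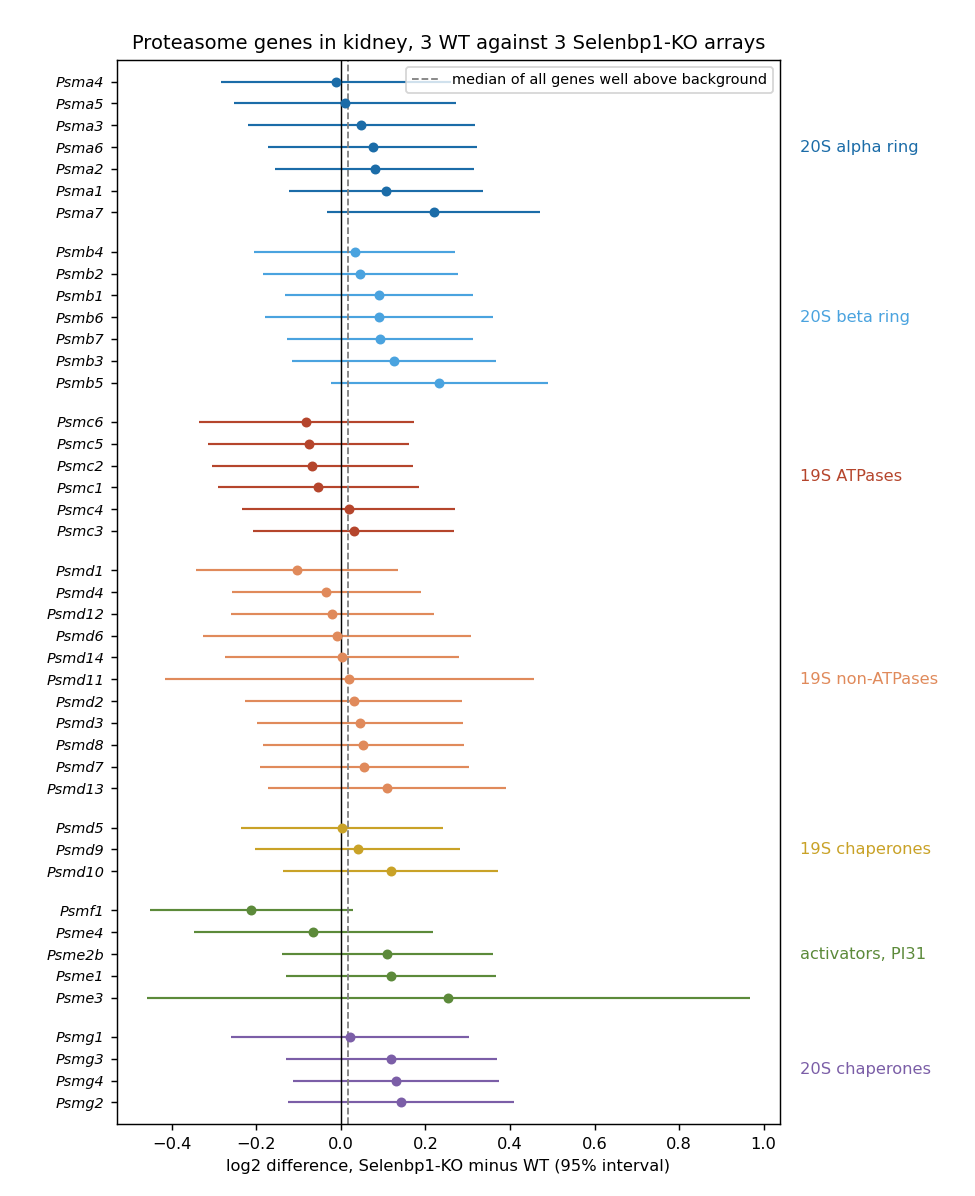
Log2 difference between Selenbp1-KO and WT kidneys (horizontal axis) for the 43 genes of the proteasome that were well above background, ordered within their subunit groups. Points are the differences fitted by limma over 3 arrays per genotype, bars are 95% confidence intervals, and the dashed line is the median of all genes well above background, at 0.02. Every interval includes 0.

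Without a call in either direction, 8 genes had arrays that did not overlap between genotypes. In 7 of them, Psma1, Psma7, Psmb1, Psmb3, Psmb5, Psmb7, and Psmg2, the lowest Selenbp1-KO array exceeded the highest WT array, and in 1, Psmf1, the reverse held. Over all genes the arrays did not overlap in 14.1%, with 10.2% above and 3.87% below, and among genes well above background in 19%, with 12.5% above and 6.52% below. A share of 8 of 46 is near these values.

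Among the subunits of the 20S core, the highest differences were those of Psmb5 and Psma7. Psmb5 was at 4.36, 4.51, and 4.45 in WT and at 4.75, 4.58, and 4.69 in Selenbp1-KO mice. The lowest Selenbp1-KO array lay just above the highest WT array. The difference was 0.23 (standard error 0.11, limma, unadjusted p = 0.068), which is 17.5% on the linear scale, with a confidence interval from −0.02 to 0.49. Psma7, an alpha subunit, was at 5.01, 4.97, and 5.18 in WT and at 5.27, 5.26, and 5.29 in Selenbp1-KO mice. Its Selenbp1-KO arrays were nearly identical to each other, and WT replicate 4 lay nearer to them than to the other WT arrays. The difference was 0.22 (standard error 0.10, limma, unadjusted p = 0.077), and without WT replicate 4 it was 0.28 (unadjusted p = 0.026). Both genes passed the unadjusted threshold after quantile normalization, at a difference of 0.17 (unadjusted p = 0.046) for Psmb5 and 0.13 (unadjusted p = 0.034) for Psma7. With slide side as a block, which leaves WT replicate 4 against the Selenbp1-KO arrays beside it, Psmb5 differed by 0.22 (unadjusted p = 0.18) and Psma7 by 0.10 (unadjusted p = 0.43).

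The other core subunits differed less. In the alpha ring, differences ran from −0.01 for Psma4 up to that of Psma7, and 6 of 7 genes were higher in Selenbp1-KO mice, with a median of 0.08. In the beta ring, all 7 genes were higher, from 0.03 for Psmb4 up to that of Psmb5, with a median of 0.09. Psmb6 and Psmb7, which encode the other catalytic subunits, differed by 0.09 each. After quantile normalization, 8 of the 14 core genes were higher and 6 lower, with a median of 0.02.

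In the 19S particle, no gene had arrays that did not overlap, and 9 of 17 were higher and 8 lower, with a median of 0.002. After quantile normalization, and also within slide side 2, 5 were higher and 12 lower. Of the 6 ATPases, 4 were lower in Selenbp1-KO mice, and their differences ran from −0.08 for Psmc6 to 0.03 for Psmc3. After quantile normalization, all 6 were lower, with a median of −0.12, and so they were within slide side 2, with a median of −0.08. The non-ATPase subunits ran from −0.10 for Psmd1 to 0.11 for Psmd13, with 7 of 11 higher. Psmd1 was at 4.20, 4.26, and 4.31 in WT and at 4.13, 4.10, and 4.22 in Selenbp1-KO mice. Only Selenbp1-KO replicate 3 reached into the WT range. The difference was −0.10 (standard error 0.10, limma, unadjusted p = 0.32), and all 4 probes of Psmd1 were lower, by up to −0.28. After quantile normalization, Psmd1 and also Psmc1, Psmc2, and Psmd4 passed the unadjusted threshold as lower. They were singled out by these calls after their values were seen. Beside them, 9.1% of all genes passed in either direction. Of the 19263 genes well above background, 1494 passed as higher and 1201 as lower. Psmd1 was then at −0.14 (unadjusted p = 0.0072) and Psmd4, a ubiquitin receptor, at −0.13 (unadjusted p = 0.041), and no gene of the proteasome passed after Benjamini-Hochberg adjustment. The study's methods test the arrays with limma and name Student's t-test only in their general section on statistics. By this t-test, 6 genes of the proteasome passed, beside 7.72% of all genes. Psma1, Psma7, Psmb1, Psmb5, and Psmb7 passed as higher and Psmf1 as lower. With the test confined to probes well above background, Psma7, Psmb5, and Psmf1 passed, beside 10.4% of the genes so tested.

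**Figure D2:**
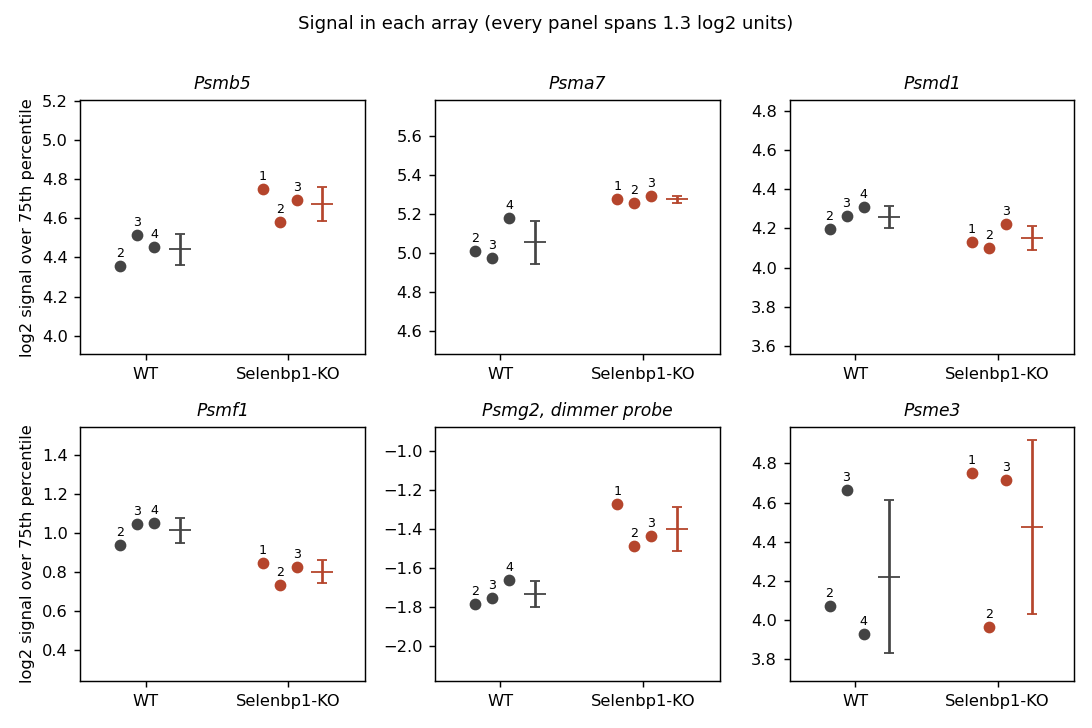
Log2 signal relative to the 75th percentile (vertical axis) of 6 proteasome genes in each array, numbered by replicate, with the mean and SD of 3 arrays beside the points. Psmb5, Psma7, and the dimmer Psmg2 probe lie higher in all Selenbp1-KO arrays, Psmf1 lies lower, Psmd1 overlaps, and Psme3 falls into high and low arrays within both genotypes.

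Core and 19S genes lay slightly apart. The median of the 14 core genes was above that of the 17 genes of the 19S particle by 0.08 in the difference between genotypes. Within single arrays, the median deviation of the core genes from their own means, minus that of the 19S genes, was −0.07, −0.05, and −0.04 in WT mice and 0.02, 0.05, and 0.03 in Selenbp1-KO mice. The values were thus negative in all WT arrays and positive in all Selenbp1-KO arrays. Each deviation is taken from the gene's mean over these same arrays, so a gap between genotypes by itself gives them opposite signs. The values restate that gap array by array and do not say which genes had the higher signal. After quantile normalization, the same values were −0.06, −0.05, and −0.02 in WT and 0.002, 0.03, and 0.04 in Selenbp1-KO mice, with the same signs. The median of the core genes was then 0.02 and that of the 19S genes −0.07. Over all 19 other ways of processing the data, the gap ran from 0.06 to 0.12. All of them use the same arrays or some of them, so they are no separate evidence. This contrast was noticed in the data, is smaller than the interval of any single gene, and was not tested.

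**Figure D3:**
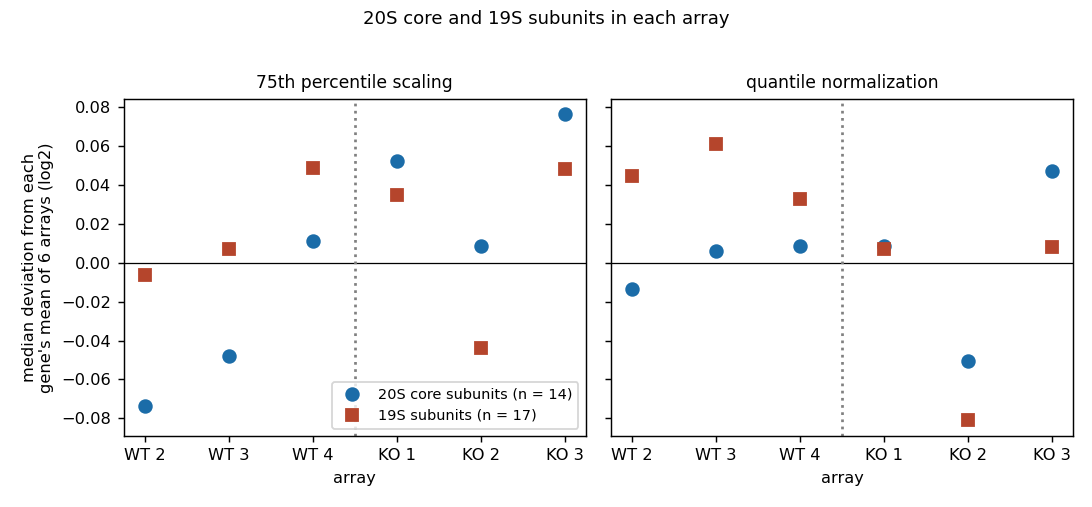
Median deviation of 14 genes of the 20S core (circles) and 17 genes of the 19S particle (squares) from each gene's mean of 6 arrays, in log2 units (vertical axis), in each array (horizontal axis), with scaling to the 75th percentile on the left and quantile normalization on the right. Circles lie below squares in the WT arrays and above them in the Selenbp1-KO arrays in both panels, and the squares of Selenbp1-KO replicate 2 are the lowest of their group in both.

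**Figure D4:**
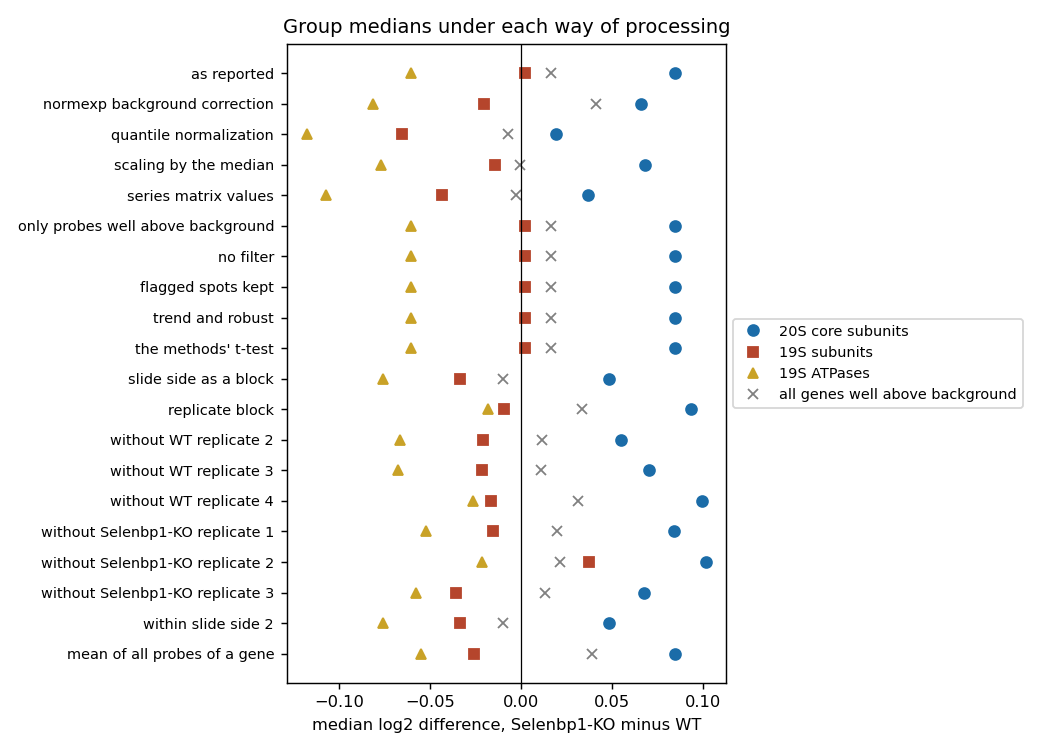
Median log2 difference between Selenbp1-KO and WT kidneys (horizontal axis) of the 20S core genes, the 19S genes, the 19S ATPases, and all genes well above background under each way of processing (vertical axis). The core median is above 0 under each of them, from 0.02 to 0.10, and the median of the ATPases is below 0 under each.

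The activators and the inhibitor differed most among themselves. Psmf1, which encodes the inhibitor PI31, was at 0.94, 1.05, and 1.05 in WT and at 0.85, 0.73, and 0.82 in Selenbp1-KO mice. All Selenbp1-KO arrays were below all WT arrays. The difference was −0.21 (standard error 0.10, limma, unadjusted p = 0.075), or −13.7% on the linear scale, and −0.21 (unadjusted p = 0.0081) after quantile normalization. With slide side as a block it was −0.25 (unadjusted p = 0.10). A second probe of Psmf1 well above background differed by −0.06 (unadjusted p = 0.62), so the probes do not show the same size. The mean over all 3 Psmf1 probes, of which 1 was not well above background on any array, differed by 0.04 (unadjusted p = 0.70).

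Psme3, which encodes the nuclear activator REG gamma, had the widest span of the proteasome genes well above background, 0.83. It was at 4.07, 4.66, and 3.93 in WT and at 4.75, 3.96, and 4.71 in Selenbp1-KO mice. WT replicate 3 and Selenbp1-KO replicates 1 and 3 were high, and the remaining arrays low, so the genotypes overlapped. The difference was 0.25 (standard error 0.29, limma, unadjusted p = 0.42). It was 0.55 with slide side as a block, 0.48 when WT replicate 3 was left out, and 0.51 when Selenbp1-KO replicate 2 was. Leaving out WT replicate 4 gave 0.11, leaving out Selenbp1-KO replicate 1 gave 0.12, and leaving out Selenbp1-KO replicate 3 gave 0.14. None of these passed the test. Its second probe, to another transcript, was at −1.15, −1.03, and −1.12 in WT and at −1.03, −1.15, and −0.998 in Selenbp1-KO mice, with the same arrays high and low over a narrower span, and differed by 0.04 (unadjusted p = 0.71). Psme1 and Psme2b, which encode subunits of the activator PA28 or closely resemble them, differed by 0.12 and 0.11, and Psme4, which encodes the activator PA200, by −0.07.

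The assembly chaperones held the only probe that passed the test, which is 1 of 90 probes beside 7.98% of all probes. It was a dimmer probe of Psmg2, which encodes the chaperone PAC2 of the alpha ring. This probe (XM_011246804) was at −1.78, −1.76, and −1.66 in WT and at −1.27, −1.49, and −1.44 in Selenbp1-KO mice. All Selenbp1-KO arrays were above all WT arrays. The difference was 0.33 (standard error 0.11, limma, unadjusted p = 0.022), with an adjusted p of 0.279. With slide side as a block it was 0.26 (unadjusted p = 0.12). The brightest probe of Psmg2 (NM_134138) differed by 0.14 (unadjusted p = 0.24) and another (BC016606) by 0.22 (unadjusted p = 0.088), so all 3 probes lay in 1 direction. The lowest of the 4 core chaperones was Psmg1, at 0.02, and those of the 19S base ran from 0.003 for Psmd5 to 0.12 for Psmd10.

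Different probes of 1 gene can be set against each other as a check on these small values. Of 27 genes with at least 2 probes well above background, 19 had all such probes on 1 side of 0, and the median gap between the highest and the lowest was 0.07. The largest, 0.34, was that of Psmc3ip. Probes on both sides of 0 were those of Psma3, Psmb2, Psmc3, Psmc3ip, Psmc4, Psmd2, Psmd7, and Psmd14. Among these, Psma3 ran from −0.25 to 0.05, Psmd2 from −0.22 to 0.03, and Psmd7 from −0.18 to 0.06. The 8 probes that stayed near background on every array had a median difference of 0.29, which was −0.003 after quantile normalization.

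The targeted gene has proteasome genes as neighbors. The Selenbp1 probe lies on chromosome 3 of mm9, from 94748621 to 94748680. Probes of Psmb4 lie 57.9 kb and 60.0 kb before it and differed by 0.01 and 0.03. Those of Psmd4 lie from 87.9 kb to 89.3 kb after it, and its 2 probes well above background on all arrays differed by −0.03 and −0.04. Psmb4 was at 5.59, 5.61, and 5.74 in WT and at 5.67, 5.67, and 5.69 in Selenbp1-KO mice, and Psmd4 was at 5.29, 5.25, and 5.25 against 5.20, 5.21, and 5.27. The Psmb4 arrays of the Selenbp1-KO mice lay inside the WT range, and Psmd4 overlapped as well. With slide side as a block, Psmb4 differed by −0.06.

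RefSeq promoter windows (GRCm38.p6, 250 bases before to 50 after a start site) were found for 38 of the 46 genes, 40 windows in all. They were searched on both strands for TGACNNNGC, the core of the antioxidant response element bound by Nrf1 and Nrf2, and for CCAAT, the box bound by NF-Y. The first was in 6 windows (15.0%, beside 12.4% of all 32851 windows), those of Psmb5, Psmb6, Psmc6, Psmd9, Psmd12, and Psme4, and the second in 14 (35.0%, beside 37.4%). No window held both, so no matches overlapped. The members' shares are thus near those of all promoters. CCAAT was in 7 of the 13 windows of core genes and in 4 of the 15 of 19S genes. The 250 bases before the start site are shown for the core genes with the highest differences, Psmb5 and Psma7, and for the genes with the lowest, Psmd1 and Psmf1, with matches to either motif in capitals. The Psmb5 match begins 47 bases before the start site, the Psma7 match is CCAAT, and the other windows held neither. Psmb5 is chr14:54617996-54618245 (minus strand), Psma7 chr2:180042465-180042714 (minus), Psmd1 chr1:86064369-86064618 (plus), and Psmf1 chr2:151741311-151741560 (minus).
Psmb5: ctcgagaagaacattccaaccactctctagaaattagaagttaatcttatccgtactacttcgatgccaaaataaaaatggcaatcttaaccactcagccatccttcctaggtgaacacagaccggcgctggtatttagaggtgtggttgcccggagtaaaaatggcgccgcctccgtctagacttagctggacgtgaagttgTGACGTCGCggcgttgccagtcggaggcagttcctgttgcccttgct
Psma7: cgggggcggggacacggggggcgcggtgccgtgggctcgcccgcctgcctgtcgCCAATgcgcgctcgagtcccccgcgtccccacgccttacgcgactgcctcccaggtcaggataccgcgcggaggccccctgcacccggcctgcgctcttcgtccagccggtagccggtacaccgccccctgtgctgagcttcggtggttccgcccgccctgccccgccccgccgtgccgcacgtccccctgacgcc
Psmd1: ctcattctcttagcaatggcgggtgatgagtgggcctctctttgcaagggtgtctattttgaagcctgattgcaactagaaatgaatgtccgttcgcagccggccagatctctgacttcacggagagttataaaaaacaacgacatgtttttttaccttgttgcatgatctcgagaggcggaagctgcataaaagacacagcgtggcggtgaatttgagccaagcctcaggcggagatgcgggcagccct
Psmf1: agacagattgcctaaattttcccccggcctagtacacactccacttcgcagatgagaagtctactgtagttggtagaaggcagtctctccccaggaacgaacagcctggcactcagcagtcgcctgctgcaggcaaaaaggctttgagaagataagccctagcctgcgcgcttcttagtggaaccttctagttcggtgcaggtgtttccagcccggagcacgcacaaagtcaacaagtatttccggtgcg

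Genes that work around the proteasome are given next. None of the 16 measured genes for other proteasome-bound proteins passed the test, and none of 6 ubiquitin genes and activating enzymes and none of 15 genes of the p97 unfoldase and its cofactors did, with medians of −0.02, 0.03, and −0.01. None of 8 genes of the route through which the factor Nrf1 induces proteasome genes passed either. Nfe2l1, which encodes Nrf1, differed by 0.002. Ddi2, which encodes the protease that activates Nrf1, was at 1.33, 1.46, and 1.53 in WT and at 1.04, 1.09, and 1.31 in Selenbp1-KO mice. Its arrays did not overlap, and the difference was −0.29 (standard error 0.12, limma, unadjusted p = 0.052). Ddi2 is named here after its values were seen.

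Of the 3 catalytic genes of the immunoproteasome, which replace constitutive subunits, Psmb8 and Psmb9 rose in Selenbp1-KO mice at an unadjusted p. Beside them, 6.87% of all genes passed as higher. Psmb8 was at −0.73, −0.58, and −0.60 in WT and at −0.02, 0.02, and −0.43 in Selenbp1-KO mice, a difference of 0.50 (standard error 0.15, limma, unadjusted p = 0.017, adjusted p = 0.275). Psmb9 was at −0.35, −0.24, and −0.13 in WT and at 0.23, 0.43, and −0.03 in Selenbp1-KO mice, a difference of 0.45 (standard error 0.15, limma, unadjusted p = 0.024). All Selenbp1-KO arrays were above all WT arrays for both, with replicate 3 nearest to WT. Psmb10 differed by 0.16 and did not pass. With slide side as a block, Psmb8 differed by 0.46 (unadjusted p = 0.093) and Psmb9 by 0.34 (unadjusted p = 0.17). Psmb5, the constitutive counterpart of Psmb8, is described above, and whether the differences of these genes are unequal was not tested.

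Markers of other cells are given beside Psmb8 and Psmb9, counted at the same unadjusted threshold. Over all genes, 6.87% passed as higher and 1.13% as lower. Each marker gene that passed had a Benjamini-Hochberg adjusted p of 0.275 from limma. Whether the markers vary with Psmb8 and Psmb9 from array to array was not tested. Of 8 macrophage markers, 5 rose in Selenbp1-KO mice, C1qc by 0.60, Mrc1 by 0.70, and C1qa by 0.58 among them. The summed signal of all 8, in multiples of the 75th percentile, was 11.0 to 12.6 in WT and 13.3 to 14.6 in Selenbp1-KO mice. Most of this sum is Csf1r, which differed by 0.17 (limma, unadjusted p = 0.20), did not pass, and overlapped between genotypes. Of 8 interferon-stimulated genes, 3 rose, Irf7 by 0.32, Oas1a by 0.35, and Isg15 by 0.46, with sums of 8.52 to 9.96 against 10.1 to 11.4. All 6 red blood cell genes rose, Hbb-b1 by 1.26, Hbb-b2 by 1.17, and Hbb-bt by 1.02, with sums of 549 to 722 against 779 to 1173. Most of this sum is Hba-a1 and Hba-a2, which differed by 0.56 and 0.53, and by 0.26 and 0.25 after quantile normalization. Of 6 lymphocyte markers, only Cd3e passed, higher by 0.64. By their means, 4 were higher and 2, Cd79b and Ptprc, were lower. The sums were 2.39 to 3.12 against 2.53 to 2.97, and Cd79a was not well above background on any array. None of 4 fat markers passed, with sums of 12.1 to 47.3 against 21.4 to 118, and of 4 adrenal markers, 3 (Cyp11b1, Cyp11a1, and Dbh) were not well above background on any array. Within slide side 2, the median difference was 0.40 for the macrophage markers, 0.02 for the interferon-stimulated genes, and 1.003 for the red blood cell genes. In whole kidney RNA, more cells of a type and more RNA per cell cannot be told apart, and the part of these cells in Psmb8 and Psmb9 was not tested.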

How the data were processed

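Kidney RNA was labeled with Cy3 and hybridized to 6 one-color Agilent arrays (design 074809 per the file headers, while the series names another design). The authors deposited the output of Feature Extraction, version 10.7.1.1 per the file headers and 9.5.1.1 per the submitters' processing notes. Its intensities are linear, background-subtracted, and detrended, and were not scaled between arrays. The deposited files also give a p-value for each spot against its background, and the authors deposited a table of 1 intensity per probe whose 6 columns share 1 distribution. The genome build of the probe coordinates is mm9. The labels and the methods name different kits for RNA extraction.

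The log2 intensity minus that of the array's 75th percentile over 59305 non-control spots was averaged over the spots of a probe, outlier spots left out. Of 56605 probes, 56097 had a detection p below 0.05 on 1 array or more and entered 1 model of genotype in limma (version 3.58.1; lmFit, then eBayes; two-sided tests), run in R (version 4.3.3). The threshold is the study's, an unadjusted p below 0.05, and adjusted p-values are Benjamini-Hochberg over all genes or all probes. A gene is represented by its probe with the highest mean of 6 arrays. The 75th percentile lay between 477 and 751, from 51.8% to 55.5% of spots were well above background, and none was saturated. The number of arrays limits the precision. The p-values, standard errors, and intervals rest on the spread between single mice, which eBayes draws toward 1 value shared by all probes tested. For genes of low spread this shared value dominates. Psmb7, for example, had an SD of 0.02 in WT and 0.007 in Selenbp1-KO mice, and a standard error of 0.09. An exact permutation test of 3 against 3 arrays could not go below p = 0.10 and was not run.

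The members and lists were chosen with earlier results of these data known. Members named by rule are every called gene, those with the largest difference in each direction, and the highest and lowest of each subunit group. Genes with several probes are named by rule where these differ in sign or call by more than 1 log2 unit. They are also named where 1 probe is called and the brightest is not. Of the related lists, the called genes up to 3 in order of p are named. Other members were named after their values were seen. Alternatives were normexp (offset 50), quantile normalization, scaling by the median, the authors' table, 2 filters, flagged spots kept, the methods' t-test, eBayes with trend and robust settings (using statmod, version 1.5.0), blocks for slide side and replicate number, the mean of all probes, and leaving out each array. The comparison within slide side 2 was added after seeing the data. The fit was tested on simulated data. Motif positions are those of RefSeq windows and are not on the build of the probes.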

Additional observations from a re-analysis of the deposited data

How the results depend on the processing

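The count of proteasome genes that passed was 0 with no filter, with flagged spots kept, with slide side as a block, with the mean of all probes, and within slide side 2 (WT replicate 4 against all Selenbp1-KO arrays, chosen after seeing the data). It was 7 after quantile normalization (2 higher, 5 lower), 6 with the methods' t-test (5 higher, 1 lower), 5 with the authors' table (2 higher, 3 lower), 3 among probes well above background and 3 with trend and robust options (2 higher, 1 lower in both), 2 with normexp, and 1 with scaling by the median. It ran from 0 to 2 on leaving out 1 array, with the 2, Psma7 and Psmb11, without WT replicate 4, where 1 of them also passed after adjustment. The share of tested genes that passed was counted for the limma model of genotype, quantile normalization, the t-test, and probes well above background. For the other alternatives this share was not counted, so whether their proteasome counts exceed it was not tested. Which genes pass thus rests on the scaling and the variance model, and Psmb11, which counts among them with normexp, with scaling by the median, and with the replicate block, was not well above background on any array. The median difference of the 46 genes was −0.0072 after quantile normalization, 0.0011 with the authors' table, −0.00024 with slide side as a block and the same within slide side 2, and from 0.029 to 0.076 on leaving out 1 array.

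Of 303 values of 16 named genes under 19 alternatives, 28 had the opposite sign, 24 passed the threshold that had not, and 251 did neither. With normexp, Psmc3 was at −0.017 and Psmd5 at −0.036. With quantile normalization, Psmb4 was at −0.079, Psmc3 at −0.071, and Psmg1 at −0.014. With the authors' table, these were at −0.045, −0.052, and −0.016. With scaling by the median, Psmd5 was at −0.014. With slide side as a block, and equally within slide side 2, Psmb4 was at −0.060, Psmc3 at −0.033, Psmd13 at −0.028, and Psmg1 at −0.086. With the mean of all probes, Psmf1 was at 0.041. On leaving out 1 array, Psma4 ran from −0.056 to 0.045, Psmd5 from −0.028 to 0.035, and Psmg1 from −0.034 to 0.084. The causes were not tested.

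Replicate numbers 2 and 3 occur in both genotypes, but nothing says that they pair mice. Deviations from the genotype means correlated at 0.17 and 0.19 in the arrays of the same number, and at 0.19 between WT replicate 3 and Selenbp1-KO replicate 1. With a replicate block, 1 proteasome gene passed, and Psma4 was at 0.022, Psmd5 at −0.029, and Psme3 at −0.031.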
